A study of Mus musculus with 6 samples.

Results

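The 10 genes described here mark macrophages of fat or keep them alive, and were followed in white adipose tissue with and without an adipocyte-directed deletion of Cnot3. The members were every probe set whose only gene name in the array annotation was Adgre1, Cd68, Csf1r, Csf1, Lyz2, Mrc1, Cd163, Mertk, Timd4 or Cd14. This gave 15 probe sets for the 10 genes, out of 45037 probe sets and 18193 named genes on the array, and all 15 were bright enough to be tested.

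Macrophages of fat pads are partly long-lived resident cells and partly cells renewed from blood monocytes. The growth factor CSF1 and its receptor CSF1R, a tyrosine kinase, sustain them. F4/80 (Adgre1), macrosialin (Cd68) and lysozyme (Lyz2) are carried by most macrophages, whereas CD163, TIM-4 (Timd4), MERTK and the mannose receptor (Mrc1) are used to mark resident or tissue-clearing ones. In lean fat these cells take up dead cells and debris, and in stressed fat macrophages gather around dying adipocytes.

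Epididymal white adipose tissue of 3 wild-type (WT) and 3 CNOT3 knockout (CNOT3KO) mice, on a C57BL/6 background and 8 weeks old, was hybridised to 1 Affymetrix array per mouse. In CNOT3KO mice a Cre recombinase under the adiponectin promoter, and so acting in adipocytes, removed CNOT3, a core subunit of the mRNA deadenylase complex CCR4-NOT. The labels do not say whether WT mice carried the Cre or a floxed allele. Whole tissue was used, so macrophages, vessels and other cells keep the gene and contribute RNA. Values are signals made by the authors with MAS5, on a linear scale.

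The median signal was 92.1, 92.9 and 91.9 on the arrays of WT mice 1 to 3. It was 85.8, 88.0 and 82.1 on those of CNOT3KO mice 1 to 3, each below every WT array. Each array correlated with the others of its group at a mean r of 0.982 to 0.987 across tested genes, and none stood apart. The brighter Cnot3 probe set read 305, 293 and 305 in WT mice 1 to 3 and 194, 229 and 179 in CNOT3KO mice 1 to 3, with every knockout mouse below WT. A second one overlapped, at 264 ± 47.7 and 227 ± 24.1 (SD, n = 3 each). Adipoq, the adiponectin gene of adipocytes, was bright in both groups, at 28794 ± 6538 and 26934 ± 4407.

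Of the 10 genes, the general macrophage markers and Mrc1 rose, and the other markers of resident macrophages read below WT or did not pass. Cd68 and Adgre1 rose most, to 7.61-fold and 3.77-fold of WT, and Lyz2, Mrc1 and Csf1r rose 1.94-fold, 1.73-fold and 1.51-fold. Mertk read 75.4% of WT and passed the test as lower by a narrow margin, and Cd163 and Timd4 read 61.1% and 76.2% of WT without passing. Csf1 and Cd14 read 98.0% and 113% of WT and did not pass. Folds and percentages of WT are on the scale of log2(signal + 22.5), and the test was limma over 12769 genes with Benjamini-Hochberg adjustment at 0.05.

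As a count, 5 of the members were called higher, 1 lower and 4 neither. Over all genes tested 40.1% were called, 23.2% higher and 16.9% lower. The counts of the other gene lists below stand beside the same shares. The groups did not overlap in 7 genes, with every CNOT3KO mouse above every WT mouse in 5 and below in 2. Over all genes tested 51.7% did not overlap, 29% above and 22.7% below. The median log2 difference was 0.38 over the members and 0.024 over all genes tested. After centring every array on its median over tested genes, the members split into 5 higher and 2 lower, and all genes into 2318 higher and 2800 lower instead of 2959 and 2156. In whole tissue, more cells of a type and more RNA per cell cannot be told apart, and this holds for every value given here.

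**Figure D1:**
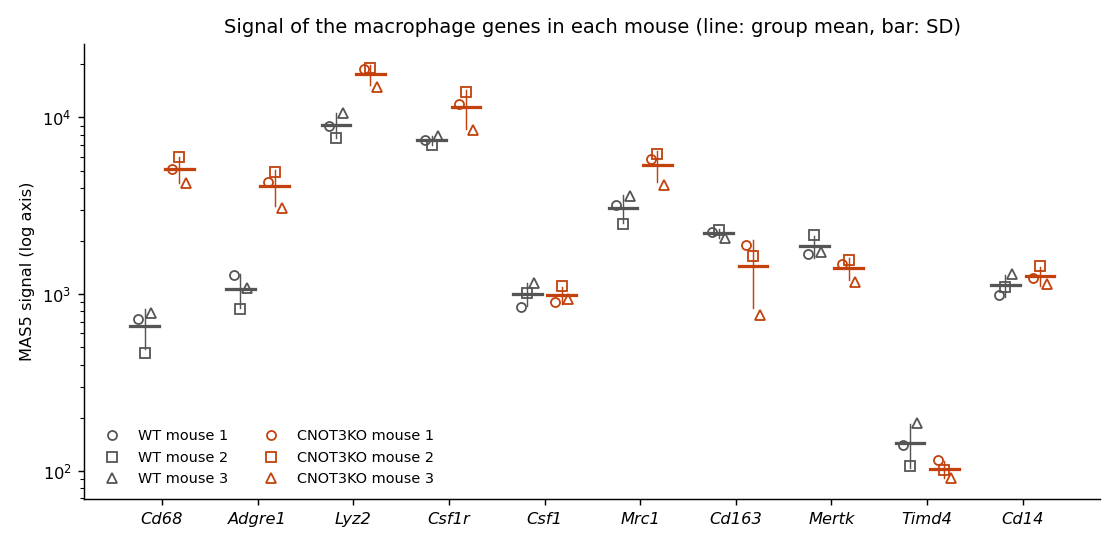
MAS5 signal of the brightest probe set of each gene (log axis) in 3 WT mice (grey) and 3 CNOT3KO mice (orange), with the group mean as a line and the SD as a bar. Cd68, Adgre1, Lyz2, Csf1r and Mrc1 are separated upwards, Cd163 and Mertk downwards, and Csf1, Timd4 and Cd14 overlap.

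Short stretches of the promoters are shown because several of these genes rose together, and the ETS-family factor PU.1 (Spi1), which binds a core of GGAA, drives many macrophage genes. The letters GGAAGT were searched on both strands, from 250 bases before to 50 bases after each start site, in RefSeq promoters of GRCm38.p6. Promoters of 7 of the 10 genes were searched, and those of Adgre1, Csf1r and Cd14 were not. Of the 7, 4 held the motif once. Their 30-base windows are printed in the direction of the gene, with the motif, or its reverse complement ACTTCC, in capitals.
Cd68: attttagttaagGGAAGTgaggcttttcat
Lyz2: agatcggtaggaACTTCCtgttttgcacac
Mrc1: tcacttctccccACTTCCtgcgttttctcc
Timd4: tgcggcagaaagGGAAGTgaaagttgagcg

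The Cd68 window (chr11:69666142-69666171, minus strand) lies across the start site, with the motif beginning at base 12 of the transcript. In Lyz2 (chr10:117282355-117282384, minus strand) the motif begins 100 bases before the start site, in Mrc1 (chr2:14229191-14229220, plus strand) 211 bases before and in Timd4 (chr11:46810715-46810744, plus strand) 72 bases before. The promoters of Csf1, Cd163 and Mertk held no match in this window. The motif occurs in 23.8% of 32851 promoter windows of the same length, so a match describes the letters and does not show a bound site. It was found in 3 genes that rose and in Timd4, which did not pass the test. Adgre1 and Csf1r, which also rose, were not searched.

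Cd68 encodes a heavily glycosylated protein of late endosomes and lysosomes. It read 722, 468 and 788 in WT mice 1 to 3 and 5087, 5971 and 4242 in CNOT3KO mice 1 to 3. The lowest knockout value was far above the highest WT value, and the log2 difference was 2.93 (SE 0.19, limma adjusted p = 1.4e-05). Among the 12769 tested genes it ranked 32 by the size of its rise.

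Adgre1 encodes F4/80, an adhesion G protein-coupled receptor used to stain mouse macrophages. It read 1288, 826 and 1091 in WT and 4332, 4923 and 3059 in CNOT3KO. The groups were well apart, and Adgre1 rose by 1.91 on the log2 scale (SE 0.20, limma adjusted p = 0.000107). Both genes kept their call under each of 19 alternative settings, between 2.71 and 3.08 for Cd68 and between 1.74 and 2.11 for Adgre1.

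Lyz2 encodes the lysozyme of macrophages and other myeloid cells, which breaks bacterial cell walls. It read 8980, 7671 and 10593 in WT and 18766, 19052 and 14945 in CNOT3KO, with every knockout mouse above every WT mouse, and rose by 0.96 (SE 0.14, limma adjusted p = 0.000768). Lyz1 is a near-identical copy, so the identity of the Lyz2 signal is uncertain. Their promoter windows, set side by side without gaps, shared 201 of 300 bases (67%), and 99 of the last 100. Probe sequences were not compared, so this does not show which gene the probe set reads. The brightest probe set named Lyz1 rose as well, by 0.85 on the log2 scale, from 10923 ± 1116 to 19689 ± 776 (SD, n = 3 each). A second Lyz1 probe set read 6355 ± 1260 and 10836 ± 6530 with overlapping groups, CNOT3KO mouse 3 standing high at 18367. The names of both end in _x_at, which marks probe sets that may also read other genes, so the rise need not be that of Lyz1. The third, the only one specific by name, was dim at 85.2 ± 29.2 and 73.1 ± 31.03, overlapped and did not pass. How much of the Lyz2 signal comes from each lysozyme gene was not tested.

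Csf1r, the receptor of CSF1 and IL-34, had 3 probe sets. The brightest read 7447, 6969 and 7825 in WT and 11850, 13983 and 8440 in CNOT3KO. The knockout mice lay above WT, mouse 3 by little, and the log2 difference was 0.59 (SE 0.17, limma adjusted p = 0.0183). When each probe set was tested by itself, a second rose by 0.77 (SE 0.22, limma adjusted p = 0.0219), from 1103, 942 and 1263 to 2150, 2459 and 1271. Its call was lost without WT mouse 1 (0.78), WT mouse 2 (0.67), CNOT3KO mouse 1 (0.68) or CNOT3KO mouse 2 (0.58). The third read 1729, 1445 and 1574 in WT and 3264, 2783 and 1614 in CNOT3KO, overlapped in mouse 3, and missed the threshold (0.63, adjusted p = 0.0510). It passed under 6 of 17 alternatives, among them array weights (0.95) and leaving out CNOT3KO mouse 3 (0.92). The call of the brightest probe set was lost without WT mouse 2 (log2 0.55), CNOT3KO mouse 1 (0.55) or CNOT3KO mouse 2 (0.43), and its highest value, 0.80, came without CNOT3KO mouse 3.

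Csf1, the ligand, did not pass the test. Its brightest probe set read 852, 1015 and 1161 in WT and 902, 1107 and 946 in CNOT3KO, with the groups intermixed, and differed by -0.029 (SE 0.14, limma adjusted p = 0.888). The other 3 Csf1 probe sets were dimmer, between 79.5 and 322 in single mice, and differed by -0.10, 0.065 and 0.23, none passing the test. On the same array the log2 ratio of Csf1r to Csf1 rose by 0.62 (SE 0.21), and its groups did not overlap. This pair was chosen after its values were seen and was not tested.

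A list of other genes around the CSF1 receptor also held receptors of other growth factors. Of its 15 tested genes 8 were higher and 1 lower, with a median log2 difference of 0.54. The shares among all genes tested were 23.2% higher and 16.9% lower. Of the 8, Pik3cg, Plcg2 and Gab2 were not called without WT mouse 2 or without CNOT3KO mouse 1. The lower gene was Il34, the second ligand of CSF1R, at 466 ± 51.5 in WT and 308 ± 18.7 in CNOT3KO (SD, n = 3 each; log2 -0.56, limma adjusted p = 0.00764). The receptor chains Csf2rb2 and Csf2ra, which bind or signal for related growth factors, rose 2.29-fold and 2.09-fold, and Dok2, an adaptor that dampens tyrosine kinase signals, rose 2.08-fold. Csf2 and Csf3 were too dim to be tested, with no mouse above 39.8.

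**Figure D2:**
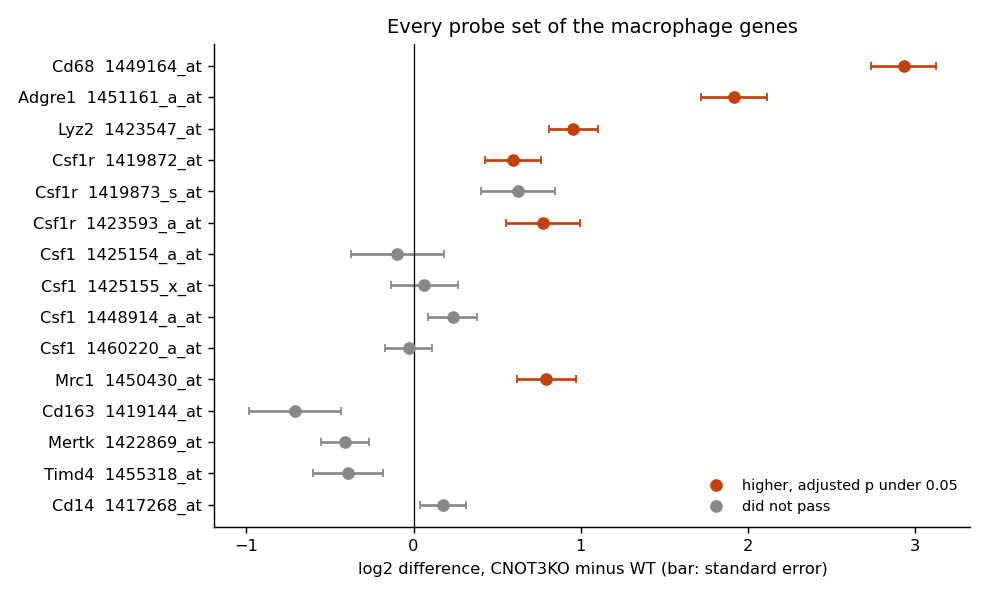
Log2 difference between CNOT3KO and WT for each of the 15 probe sets tested singly, with its standard error; orange points passed an adjusted p of 0.05 and grey points did not. The 3 Csf1r probe sets lie on one side of 0, at 0.59, 0.63 and 0.77, and the 4 of Csf1 scatter around it.

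The probe sets tested singly gave 6 higher and 0 lower calls by limma among 15. Of all 22861 tested probe sets 35.8% were called, 18.6% higher and 17.2% lower. The groups did not overlap for 8 of the 15, 6 above and 2 below, against 49% of all, 24.6% above and 24.4% below. Mertk, called in the fit over genes, missed the threshold in this one, at an adjusted p of 0.0504. Without adjustment, limma put 2 of the 15 below WT at 0.05, Cd163 and Mertk.

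Mrc1 and Cd163 encode receptors that take material into the cell and are often stained together on resident macrophages, CD206 for mannose-rich glycoproteins and CD163 for haemoglobin bound to haptoglobin. Their values went opposite ways. Mrc1 read 3183, 2498 and 3573 in WT and 5810, 6188 and 4148 in CNOT3KO, with no overlap, and rose by 0.79 (SE 0.17, limma adjusted p = 0.00587). It kept its call under all 19 alternative settings, between 0.65 and 0.98.

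Cd163 read 2255, 2307 and 2067 in WT and 1909, 1637 and 767 in CNOT3KO. Every knockout mouse was below every WT mouse, but by unequal amounts, mouse 3 standing lowest, and the difference of -0.71 (SE 0.28, limma adjusted p = 0.0657) did not pass. The WT mice had a coefficient of variation of 5.71% and the knockout mice of 41.5%. Without CNOT3KO mouse 3 the difference shrank to -0.32 (adjusted p = 0.0646), and without CNOT3KO mouse 1 it grew to -0.96 and passed (adjusted p = 0.0259). The log2 ratio of Cd163 to Mrc1 on the same array differed by -1.504 (SE 0.30), with no overlap between groups. This pair too was chosen after its values were seen and was not tested.

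Among haem and haemoglobin handling genes, to which CD163 delivers its cargo, 3 of 7 tested were higher and 0 lower (limma; 4 and 1 without adjustment). Slc40a1, the iron exporter ferroportin, rose 2.21-fold, Blvrb 2.13-fold and Blvra 2.11-fold, both of which reduce biliverdin. The median log2 difference of the list, 0.998, is the value of Hmox1, haem oxygenase, which overlapped and did not pass at 125, 98.1 and 202 in WT and 204, 152 and 781 in CNOT3KO. Without CNOT3KO mouse 3, the high one, the median was 0.38.

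Mertk encodes a receptor tyrosine kinase that binds dying cells through GAS6 and protein S. It read 1690, 2164 and 1743 in WT and 1483, 1553 and 1173 in CNOT3KO, a small separation with every knockout mouse below WT. The log2 difference was -0.41 (SE 0.14, limma adjusted p = 0.0441). The call was lost without WT mouse 2 (-0.30), WT mouse 3 (-0.45), CNOT3KO mouse 1 (-0.45) or CNOT3KO mouse 3 (-0.29), and under 5 of 13 other settings.

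Timd4 encodes TIM-4, a receptor for phosphatidylserine on dying cells and a marker of long-lived resident macrophages. It was the dimmest member, at 140, 107 and 187 in WT and 115, 102 and 91.7 in CNOT3KO. The groups overlapped through WT mouse 2, and the difference of -0.39 (SE 0.21, limma adjusted p = 0.168) did not pass. Its size depended on single mice, at -0.22 without WT mouse 3 and -0.56 without WT mouse 2, and did not pass under any of the 18 alternatives in which it was tested.

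Of 15 other tested genes for the clearance of dying cells, 8 were higher and 2 lower, with a median log2 difference of 0.52. The shares among all genes tested were 23.2% higher and 16.9% lower. Of the 8, Stab2, Elmo1, Itgb3 and Itgb5 were not called without CNOT3KO mouse 1. Elmo1 (log2 0.15) and Itgb3 (0.44) were also not called with probe sets averaged. Dock2 and Rac2, which move the actin skeleton of leukocytes, rose 3.78-fold and 1.84-fold, the former falling to a log2 difference of 0.28 (adjusted p = 0.261) with probe sets specific by name. The lower genes were Gulp1, an engulfment adaptor, at 0.483 of WT, and Gas6, the ligand of MERTK, at 0.627 of WT, which was not called when its probe sets were averaged (log2 -0.35). Axl, the related receptor, read 1277 ± 292 and 1559 ± 254 (SD, n = 3 each) and did not pass.

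Cd14 encodes the co-receptor that hands lipopolysaccharide to TLR4. It read 985, 1096 and 1295 in WT and 1236, 1443 and 1141 in CNOT3KO, with overlapping groups and a difference of 0.18 (SE 0.14, limma adjusted p = 0.332). Tlr4 itself read 477 ± 65.6 and 513 ± 97.0 and did not pass. Of the other genes of the pathway 5 of 16 tested were higher and 3 lower, near the shares among all genes tested, 23.2% higher and 16.9% lower. Their median log2 difference was 0.030, which changed sign with single mice (-0.039 without WT mouse 1, 0.063 without CNOT3KO mouse 2). Of the 3, Map3k7 and Tnfaip3 were not called without WT mouse 2 or without CNOT3KO mouse 3. Map3k7 was also not called with probe sets averaged (log2 -0.16). Ly86, Ly96 and Cd180, which encode partners or relatives of the TLR4 complex, rose 2.36-fold, 2.10-fold and 2.01-fold.

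The members were also set against Adgre1 on the same array, as the log2 ratio of each gene to Adgre1. In all 9 of the other genes the knockout ratios lay entirely to one side of the WT ratios, above for Cd68 and below for the rest. Each such difference is the gene's own difference minus that of Adgre1, which had the second largest rise among the members, so 8 of the 9 had to be below 0. The separation, too, came largely from Adgre1, whose own groups were well apart. Csf1, with a difference of -0.029 and overlapping groups of its own, separated as well. How many of all tested genes would separate from Adgre1 in this way was not counted. The ratio of Cd68 differed by 1.01 (SE 0.14). That of Lyz2 differed by -0.96 (SE 0.18), that of Mrc1 by -1.12 (SE 0.12) and that of Csf1r by -1.32 (SE 0.15). Cd14 differed by -1.74 (SE 0.27) and Csf1 by -1.94 (SE 0.32).

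Timd4, Mertk and Cd163 lay farthest below Adgre1. The ratio of Timd4 to Adgre1 differed by -2.31 (SE 0.24), that of Mertk by -2.32 (SE 0.30) and that of Cd163 by -2.62 (SE 0.31), which leaves 16.2% of the WT ratio for Cd163, 20.0% for Mertk and 20.2% for Timd4. With 3 mice per group an exact two-sided permutation test over the arrays cannot go below p = 0.1, and each of the 9 ratios reached that value (0.1 after adjustment over the 9). Csf1 and Cd14 are also made by cells other than macrophages, so their ratios to Adgre1 need not describe macrophages.

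The choice of the reference gene set much of these values. Against Ptprc, the CD45 antigen of leukocytes, chosen after values were seen and with no test, the log2 ratio of Cd68 differed by 1.89 (SE 0.22) and that of Adgre1 by 0.88 (SE 0.22). Lyz2 and Mrc1 differed by -0.079 (SE 0.15) and -0.24 (SE 0.13), with overlapping groups, and Csf1r by -0.44 (SE 0.10). These ratios rest on the brightest Ptprc probe set, which rose by 1.03. With its probe sets averaged Ptprc differed by 0.27, less than Lyz2 (0.96), Mrc1 (0.79) and Csf1r (0.59) did. The signs for these 3 genes therefore depend on the Ptprc probe set. Against the brightest Ptprc probe set Cd163, Mertk and Timd4 differed by -1.74 (SE 0.26), -1.44 (SE 0.22) and -1.43 (SE 0.23), without overlap. Another reference shifts the difference of every gene by the same amount. The order of the genes therefore could not change, and that these were lowest adds nothing to the ratios to Adgre1.

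**Figure D3:**
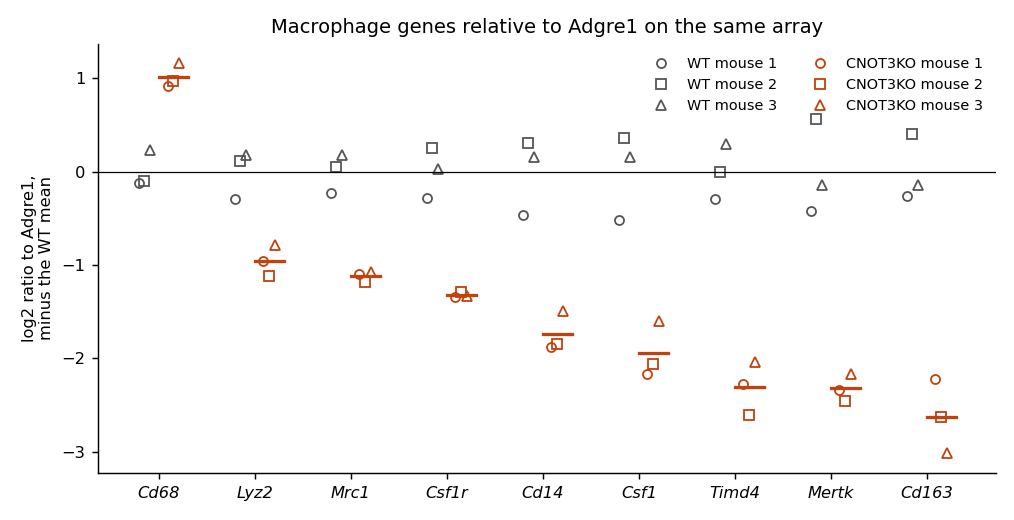
Log2 ratio of each gene to Adgre1 on the same array, minus the WT mean of that ratio, in WT mice (grey) and CNOT3KO mice (orange; line: knockout mean). Cd68 lies above 0, at 1.01, and the other genes lie below, down to -2.62 for Cd163.

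The mice of a group kept a similar order across genes. CNOT3KO mouse 3 was the lowest of its group in 9 of the 10 genes, the exception being Csf1, and mouse 2 was the highest in 8. Among WT mice, mouse 2 was the lowest in 6 genes and mouse 3 the highest in 7. CNOT3KO mouse 3 was thus lowest both in genes that rose, such as Cd68 and Csf1r, and in Cd163 and Mertk. The array of this mouse also had the lowest median of its group, at a signal of 82.1 and at log2 9.23 over tested genes. How often it was lowest over all tested genes was not counted, so the order need not be particular to these genes.

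Other macrophage and myeloid markers rose broadly. Of 25 tested, 22 were higher, 0 lower and 3 did not pass (Cx3cr1, Fcgr2b and Cd86), with a median log2 difference of 1.31. Cd84, a leukocyte adhesion receptor, rose 6.38-fold, Ms4a7, a membrane protein of macrophages, 5.36-fold and Fcgr1, the high-affinity IgG receptor, by 2.20 on the log2 scale. Ptprc, the CD45 antigen of leukocytes, rose from 1411 ± 220 to 2967 ± 781 and Itgam, an integrin chain of myeloid cells, from 83.1 ± 18.1 to 195 ± 21.6 (SD, n = 3 each). When its probe sets were averaged, Ptprc differed by 0.27 on the log2 scale and did not pass. All 9 tested lipid-associated macrophage markers were higher as well, with a median of 2.29, among them Gpnmb, a lysosomal membrane protein, from 244 ± 39.1 to 5293 ± 1351, and Trem2, a lipid receptor, from a dim 52.3 ± 50.01 to 1473 ± 193 (SD, n = 3 each).

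Further markers of resident macrophages were divided. Of 20 tested, 8 were higher, 2 lower and 10 neither. Their median log2 difference was 0.011, between -0.091 without CNOT3KO mouse 2 and 0.20 without CNOT3KO mouse 3. Of the 8, Marco and Arg1 were below the filter of 51.6 in WT and were tested only because they were high in CNOT3KO. Among the 18 genes bright in both groups 6 were higher and 2 lower. Of the 6, Fcna and Clec10a were not called when WT mouse 1, WT mouse 2, CNOT3KO mouse 1 or CNOT3KO mouse 2 was left out. The complement receptor Vsig4 and the chemokine Ccl8 rose 4.29-fold and 4.05-fold. The scavenger receptor Marco read 12.5 ± 7.32 and 99.7 ± 9.43 (SD, n = 3 each). Folr2, a folate receptor, rose 2.90-fold. The lower genes were Mgl2, a lectin, at 0.436 of WT and Retnla, a secreted protein of alternatively activated macrophages, at 0.455 of WT. Lyve1 read 1794 ± 470 and 1609 ± 255 and Cbr2 1836 ± 316 and 1811 ± 324 (SD, n = 3 each), with neither passing.

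**Figure D4:**
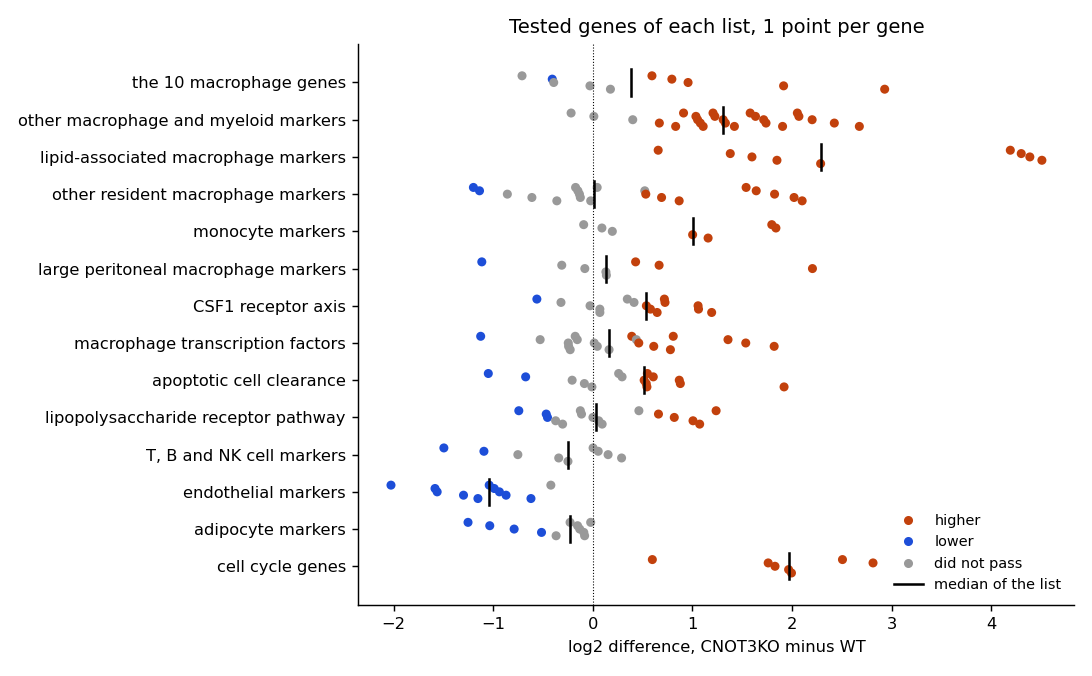
Log2 difference between CNOT3KO and WT for each tested gene of the lists (orange higher, blue lower, grey did not pass), with the median of each list as a black line. The median is 1.31 for other macrophage and myeloid markers, 0.011 for other resident macrophage markers and 0.38 for the 10 genes.

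Of 19 tested transcription factors of macrophages 8 were higher and 1 lower, with a median log2 difference of 0.16 (0.28 without CNOT3KO mouse 1, 0.092 without CNOT3KO mouse 2). Spi1, which encodes PU.1, rose from 99.1 ± 15.1 to 334 ± 78.8 (SD, n = 3 each; log2 1.53, limma adjusted p = 0.00031). Tfec, a factor of myeloid cells that reached the filter only through CNOT3KO, read 32.9 ± 30.4 and 154 ± 17.1, and Irf8, which guides monocyte development, rose 2.56-fold. The lower gene was Klf4, at 0.458 of WT. Of the 8 higher genes, Irf5 (log2 0.17), Ikzf1 (0.28) and Runx1 (0.52) were not called when their probe sets were averaged. Cebpb, Nr1h3 and Ikzf1 were not called without WT mouse 2 or without CNOT3KO mouse 1.

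Monocyte markers were higher in 4 of 7 tested genes and lower in 0, with Plac8 at 3.47-fold. Of the 4, Chil3 (29.3 ± 26.8 and 149 ± 36.1) and F10 (34.4 ± 18.2 and 99.9 ± 13.2) were below the filter in WT and were tested only through CNOT3KO. Among the 5 genes bright in both groups 2 were higher and 0 lower, with a median log2 difference of 0.20. The 2 were Plac8 and Vcan, and Vcan was not called when its probe sets were averaged (log2 0.28). The summed signal of all 7 tested genes, Chil3 and F10 included, ran from 1744 to 2094 in WT and from 3095 to 4468 in CNOT3KO. Ccr2, the chemokine receptor of inflammatory monocytes, read 498 ± 98.3 and 615 ± 274 and did not pass. Of 8 markers of large peritoneal macrophages 3 were higher (Prg4 at 4.61-fold, Garnl3 at 1.59-fold and Lbp, whose direction turned with the mean of its probe sets) and 1 lower (Icam2, also an endothelial gene, at 0.462 of WT). Gata6, the factor that defines those cells, read 871 ± 108 and 819 ± 53.8 and did not pass.

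Other cell types moved in the same tissue. All 7 tested cell cycle genes were higher, 1 of them (Aurkb) tested only through CNOT3KO, led by Cdk1 at 7.02-fold, and their summed signal ran from 4423 to 5103 in WT and from 8912 to 9830 in CNOT3KO. Of 11 endothelial markers 10 were lower, 1 of them (Tie1) tested only through WT, with Kdr at 0.246 of WT and Pecam1 at 0.650, and the sum ran from 12857 to 13426 in WT and from 5109 to 6309 in CNOT3KO. Of 11 adipocyte markers 4 were lower and 0 higher (sum 160290 to 201360 in WT, 139723 to 168023 in CNOT3KO). Of 8 fibroblast markers 3 were higher (Lum at 2.92-fold) and 1 lower, and of 5 mesothelial markers 0 were higher and 3 lower (Msln at 0.485 of WT). The lists with 0 higher or 0 lower calls by limma also had 0 without adjustment, except the haem genes above. The part of these shifts in the macrophage values was not tested.

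Lymphocyte markers did not rise with the macrophage genes. Of 9 tested T, B and NK cell markers 0 were higher and 2 lower (limma), the B cell genes Ms4a1 (178 ± 120 and 39.4 ± 6.51) and Cd79b (105 ± 33.6 and 41.3 ± 28.9; SD, n = 3 each). Both were below the filter in CNOT3KO and were tested only through WT, and among the 7 genes bright in both groups none was called. Ms4a1 was not called without WT mouse 2 (log2 -1.42) or with its probe sets averaged (-1.03). Cd79b, at -1.09, was not called without WT mouse 2 (-0.96), WT mouse 3 (-0.98) or CNOT3KO mouse 3 (-0.63), nor under 7 other settings. The sum over all 9 tested genes ran from 974 to 1273 in WT and from 757 to 965 in CNOT3KO. Cd3e of T cells was too dim to be tested, at 46.2, 17.4 and 93.0 in WT and 30.4, 30.6 and 29.8 in CNOT3KO. Of 6 tested dendritic cell markers 0 were higher and 2 lower, Irf4 at 0.460 and Itgae at 0.736 of WT, the latter no longer called when any mouse but WT mouse 3 was left out (log2 -0.46 to -0.34). The sum over all 6 tested genes ran from 1237 to 1578 in WT and from 993 to 1201 in CNOT3KO. Of the neutrophil markers S100a8 read 455 ± 146 and 331 ± 28.7 and Mpo 56.9 ± 14.6 and 68.7 ± 10.6, the only 2 bright enough to be tested, and neither passed. Among 3 tested mast cell markers Cpa3 rose 3.15-fold. Mcpt4, also called higher, was tested only through CNOT3KO, at 17.6 ± 15.9 and 123 ± 76.3 (SD, n = 3 each). Kit was lower at 0.612 of WT, and was not called with its probe sets averaged (log2 -0.39), without WT mouse 1 (-0.63) or without WT mouse 2 (-0.65).

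**Figure D5:**
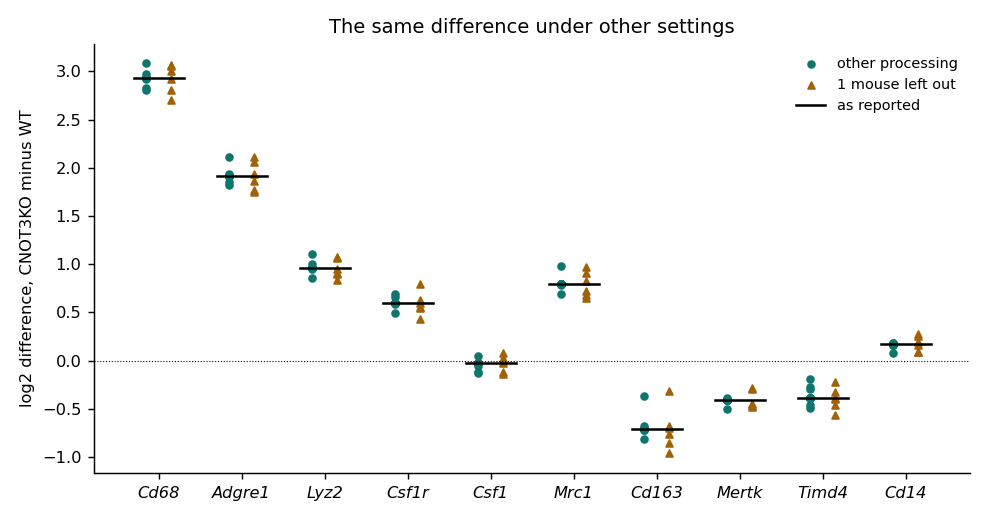
Log2 difference between CNOT3KO and WT of each gene as reported (black line), under other processing (green) and with 1 mouse left out (brown triangles). The 5 genes that rose stay above 0 and Cd163, Mertk and Timd4 below it, while Csf1 lies on both sides, from -0.14 to 0.076.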

How the data were processed

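RNA of 3 WT and 3 CNOT3KO mice was profiled with 1 array each. The authors deposited linear intensity values from MAS5 for each probe set (per the submitters' processing notes), with the version and scaling target not given in the sources used here. Trimmed means differed between arrays by 0.0701% at most, so the deposited values share a trimmed mean. Scaling sets this in advance, and it does not show that the groups are otherwise alike. Over tested genes the median log2 signal was 9.18, 9.18 and 9.17 in WT mice 1 to 3. In CNOT3KO mice 1 to 3 it was 9.30, 9.29 and 9.23.

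Each gene was represented by its brightest probe set with 1 gene name. A gene was tested when its mean signal reached 51.6, the 40th percentile. A two-sided limma test (version 3.58.1 in R 4.3.3) with an eBayes trend was run over 12769 genes on log2 of the signal plus 22.5, which is the 25th percentile of the table. The same fit was made over 22861 single probe sets. Simulated arrays with known changes were used to check the script. Titles number the mice 1 to 3 in both groups without saying that a number is shared, so no block was used. The titles name separate mice.

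The members and lists were chosen with earlier results of these data known. Of 257 listed genes outside the members, 54 were not tested. Named were the members, Cnot3, Ptprc, up to 3 genes with the largest change per list and a few defining markers; other genes named in the text were chosen after their values were seen. Python 3.11.15, pandas 2.3.3 and matplotlib 3.10.9 were used for plots.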

Additional observations from a re-analysis of the deposited data

How the results depend on the processing

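Limits: 3 arrays per group, MAS5 signals that are noisy when dim (Timd4, 3 Csf1 probe sets), 1 probe set each for 8 of the 10 genes, and whole tissue. Alternatives covered the offset, the filter, normalization and centring, the probe set, the eBayes trend, array weights, the replicate block, a stricter threshold and each mouse left out. Adgre1, Cd68, Lyz2 and Mrc1 kept direction and call under all 19, and Csf1r under 15. The ratios to Adgre1 kept their direction under another offset and quantile normalization; as their groups do not overlap, leaving out a mouse could not turn them.

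The number of members called stayed between 4 and 7. Genes called lower, 1 as reported, numbered 0 with no filter, with ribosomal centring, without trend, at an adjusted p under 0.01 or with probe sets averaged, 2 with median centring, and between 0 and 1 with a mouse left out. Probe sets called lower, 0 as reported, numbered 1 with the offset at the median, the filter at the 60th percentile or array weights, 2 with median centring, and between 0 and 1 with a mouse left out. With the mouse number as a replicate block, genes and probe sets called lower were both 2, Cd163 being added (adjusted p = 0.0339). Same-numbered mice deviated together by r = 0.07, 0.11 and 0.04, each mouse correlating best with its own number, which is a hint from the data and not from the design. All genes called numbered 3144 at 0.01 instead of 5115.

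Csf1 reversed to 0.043 when its probe sets were averaged, and ran from -0.14 to 0.076 with a mouse left out. One dim Csf1 probe set reversed to 0.19 with array weights and ran from -0.29 to 0.24 with a mouse left out, and another ran from -0.13 to 0.20. For Cd163, Mertk and the counts above the cause was not tested.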
